A study of Mus musculus with 7 samples.

Results

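Interferon-stimulated genes were followed in endothelial cells sorted from fetal mouse lungs. The set was fixed as 35 gene symbols, and each gene was read from the brightest probe set (by its mean over all 7 arrays) that carried exactly 1 gene symbol in the platform annotation. Of the 35, 32 had such a probe set, out of 22180 genes in all. Ifi44 was not found in the annotation, and Gbp2 and Dtx3l were listed only on probe sets that name a second gene, so these 3 are not analysed here. Mx1 lay below the filter on dim genes (a mean log2 signal of 1.88 against a limit of 2.98), which left 31 members among the 16637 genes tested.

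The samples were lungs of embryos collected at E18.5, shortly before birth, on a C57BL/6 background: 3 samples labelled wild-type and 4 from Sash1-/- littermates, labelled Sash1-knockout and called knockout here. Genotypes were assigned by PCR, without a statement of which exons of Sash1 are missing. Per the labels, live cells with CD31 on their surface and without CD45 or CD326 were sorted. This selects for endothelial cells and against leukocytes and epithelium. No treatment is named for either group. RNA was amplified and hybridised to 1-colour arrays, 1 per sample, and values are on the log2 scale, where a difference of 1 is a 2-fold change. The labels call the groups littermates but do not say that each sample is a separate embryo, or which samples share a litter. The p-values therefore only compare the difference between labels with the scatter among these samples, and that scatter may include technical variation.

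Type I interferons bind the receptor IFNAR, whose kinases JAK1 and TYK2 activate the complex ISGF3. STAT2 and IRF9 are subunits of ISGF3, which binds the interferon-stimulated response element, while the response to interferon gamma runs through the gamma-activated site. The induced genes encode viral RNA sensors, enzymes and binding proteins that block viral RNA, GTPases that attack intracellular pathogens, and feedback factors such as USP18 that damp the receptor. Endothelial cells express the receptors and keep a basal level of many of these transcripts.

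The response elements were looked for in RefSeq promoter windows of assembly GRCm38.p6, which run from 250 bases before to 50 bases after the gene start. Windows were given for 26 of the 35 members. The interferon-stimulated response element was searched as GAAANNGAAA on both strands, and stood in the windows of 14 of these 26 genes (53.8%), against 3.99% of the 27025 genes with a window. The gamma-activated site, searched as TTCNNNGAA, which reads the same on both strands, stood in 6 of the 26 (23.1%), against 9.55% of all genes. In Bst2 a gamma-activated site match overlapped the response element, and in Igtp one stood before it; these are not capitalised below. Other matches, such as a gamma-activated site in Ifit2, are not shown. A match of letters is a description and not a measured binding site.

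The stretches below were picked from the matches in which every base lies before the gene start, with those matches in capitals and 20 bases on either side, read 5′ to 3′ on the strand of the gene. Except for that of Irf1, they show the response element in genes picked from those with a match, and how its copy number and place differ. Isg15 (chr4:156200855-156200916, minus strand) held 3 overlapping matches between 78 and 66 bases before its start, and Ifit1 (chr19:34640765-34640833, plus strand) held 2, at 104 and 85 bases. Ifit3 (chr19:34583353-34583436, plus strand) held 2, at 156 and 122 bases, Stat2 (chr10:128270256-128270305, plus strand) 1 at 222 bases, and Igtp (chr11:58199502-58199551, plus strand) 1 at 34 bases. Bst2 (chr8:71537567-71537622, minus strand) held 2 overlapping matches, at 130 and 124 bases, and is shown because its signal varied little between arrays. Irf1 (chr11:53769904-53769952, plus strand) held no GAAANNGAAA match and is shown for its gamma-activated site, at 90 bases.
Isg15: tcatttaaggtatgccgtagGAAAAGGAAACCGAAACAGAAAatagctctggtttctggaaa
Ifit1: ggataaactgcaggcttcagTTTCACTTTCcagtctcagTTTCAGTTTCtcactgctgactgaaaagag
Ifit3: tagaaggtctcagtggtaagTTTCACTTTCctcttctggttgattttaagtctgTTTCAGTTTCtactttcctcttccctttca
Stat2: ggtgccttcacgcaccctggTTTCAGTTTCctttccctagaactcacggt
Igtp: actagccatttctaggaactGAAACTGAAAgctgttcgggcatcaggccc
Bst2: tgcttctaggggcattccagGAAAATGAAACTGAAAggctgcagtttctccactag
Irf1: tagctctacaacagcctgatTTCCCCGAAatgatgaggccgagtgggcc

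The endothelial markers Pecam1 and Cdh5 (VE-cadherin) lay between 11.03 and 11.21 and between 11.83 and 11.97 on the 7 arrays. Sash1 read 9.02, 8.73 and 8.33 in the samples labelled wild-type 1, 2 and 3, and 8.29, 8.21, 8.68 and 8.13 in knockout 1, 2, 3 and 4, so its values overlapped between labels and went against them for wild-type 3 and knockout 3. Groups are therefore named by their labels throughout, each direction rests on those labels, and values are always listed in the order of the replicate numbers. Xist and 3 Y-linked genes marked the samples of wild-type 1 and knockout 2 as male and the other 5 as female.

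The interferon-stimulated genes varied together from array to array, and this variation did not follow the labels. Their mean log2 signal over the 32 members was 5.98, 6.36 and 6.79 in wild-type 1, 2 and 3, and 6.60, 6.75, 6.10 and 6.55 in knockout 1, 2, 3 and 4. The lowest means stood on wild-type 1 and knockout 3 and the highest on wild-type 3 and knockout 2, so each label held arrays from either end. The range of 0.81 corresponds to 1.76-fold between the lowest and highest array. By label the means were 6.38 ± 0.41 (SD, n = 3) for wild-type and 6.50 ± 0.28 (SD, n = 4) for knockout, a difference of 0.13 that was smaller than the spread within either label. The set was chosen with earlier results of these data known, so this mean is given as a description with no test.

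The pattern was carried by most members. Of the 31 tested, 19 had their lowest value on the array labelled wild-type 1, where 13% of all genes tested had theirs, and 10 on the array labelled knockout 3, against 10.5% of all genes. The highest value fell on the array labelled wild-type 3 for 14 members, against 10.3% of all genes, and on the array labelled knockout 2 for 12, against 20.9%. Among the knockout arrays alone, knockout 3 was lowest for 27 members (21.4% of all genes tested), and among the wild-type arrays alone, wild-type 1 was lowest for 25 (25.5% of all genes). The members also spread more than other genes did: their median range over 7 arrays was 1.04, against 0.60 over all genes tested, and 16 of the 31 had a range of at least 1, against 16.4% of all genes. Among the exceptions were Zbp1 and Bst2, with ranges of 0.23 and 0.39, and Ifit3, whose highest value lay on the array labelled knockout 4.

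**Figure D1:**
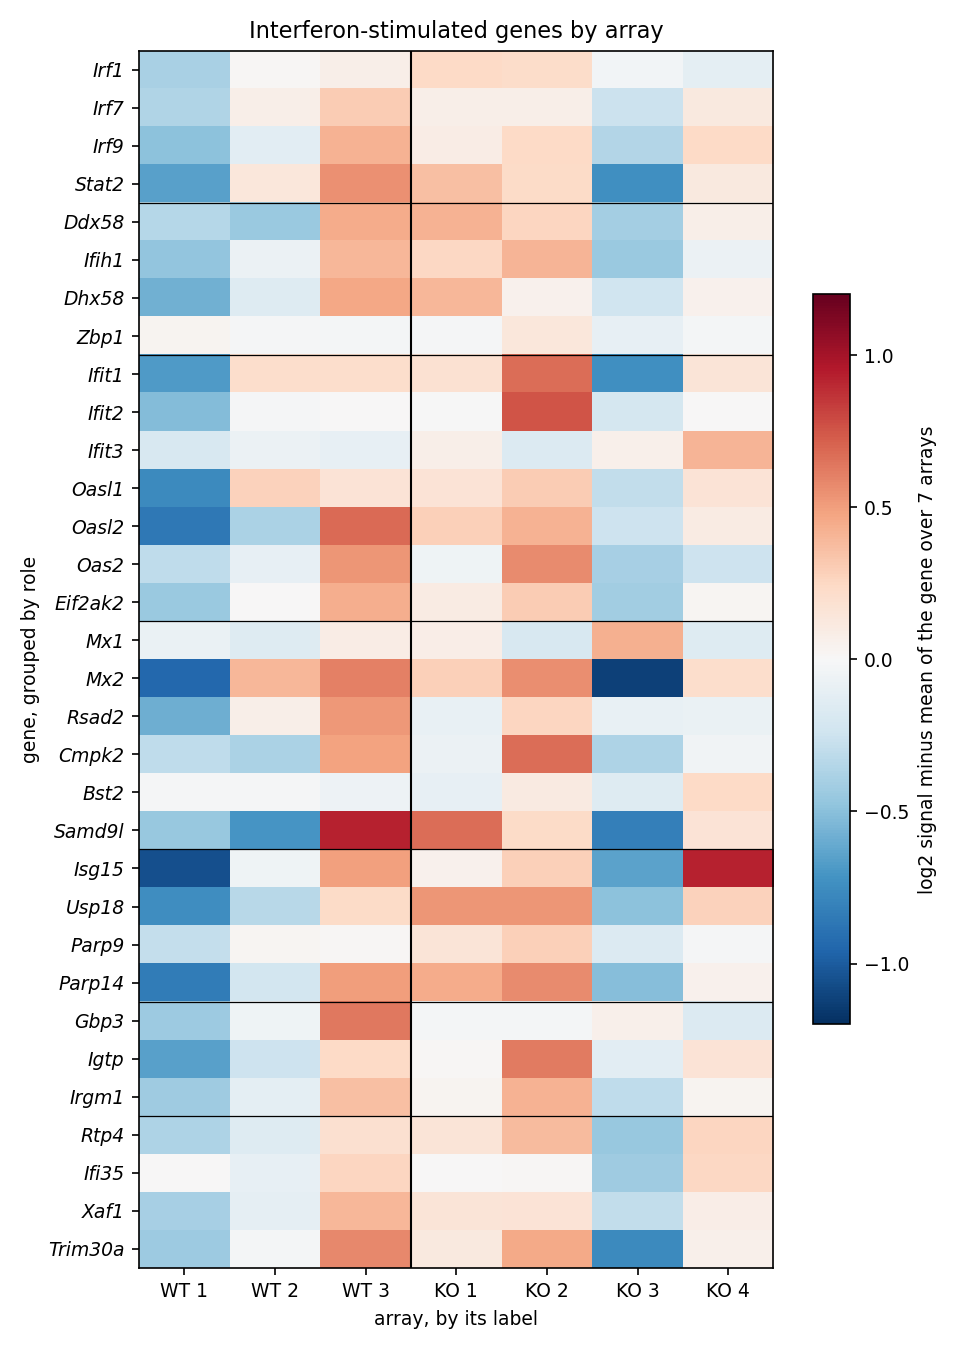
Log2 signal of each of the 32 interferon-stimulated genes (rows, grouped by role) on each array (columns, WT for wild-type and KO for knockout labels), as the deviation from that gene's mean over 7 arrays. Blue cells gather in the columns of wild-type 1 and knockout 3 and red cells in those of wild-type 3 and knockout 2, while Zbp1 and Bst2 stay near 0.

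Of the 4 transcription factors of the response, Stat2, Irf9 and Irf7 showed the pattern and Irf1 did so in part. Stat2, the signalling subunit of ISGF3, read 6.58, 7.37 and 7.78 in wild-type 1, 2 and 3 and 7.59, 7.46, 6.50 and 7.35 in knockout 1, 2, 3 and 4. Its lowest values were those of knockout 3 and wild-type 1, and the labels overlapped, with a difference (knockout minus wild-type) of -0.02 (SE 0.35, 95% confidence interval -0.85 to 0.81). Irf9, the DNA-binding subunit of ISGF3, read 6.35, 6.72 and 7.26 against 6.93, 7.08, 6.49 and 7.08, a difference of 0.12 (-0.45 to 0.68). The same arrays were lowest for both subunits. Irf9 had no response element match in its windows and Stat2 had 1.

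Irf7, which amplifies type I interferon production, read 6.43, 6.86 and 7.10 against 6.86, 6.86, 6.54 and 6.91. Its label means were 6.80 ± 0.34 (SD, n = 3) and 6.79 ± 0.17 (SD, n = 4), and its difference of -0.0042 had an interval of -0.42 to 0.41. Irf1, a factor induced mainly by interferon gamma, whose stretch above holds a gamma-activated site match, read 6.09, 6.50 and 6.55 against 6.72, 6.70, 6.45 and 6.36. Here the array labelled wild-type 1 alone was low, and the array labelled knockout 4 lay below knockout 3. The difference of Irf1 was 0.18 (-0.18 to 0.54) and was 0.03 without wild-type 1.

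**Figure D2:**
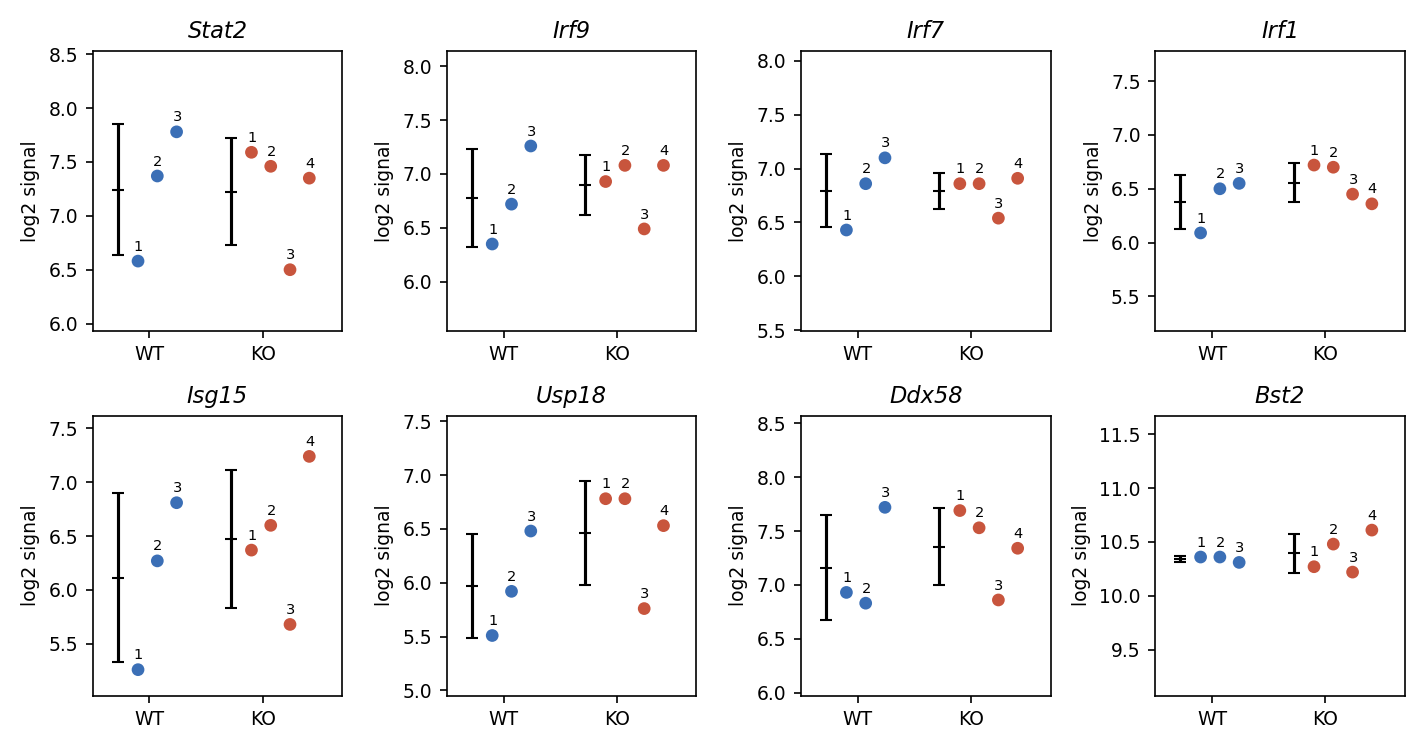
Log2 signal of 8 interferon-stimulated genes on each array, by label, with the replicate number beside each point and the mean with 1 SD as bars (n = 3 for WT, wild-type, and n = 4 for KO, knockout). All panels span the same log2 height. WT 1 and KO 3 are the lowest of their label for Stat2, Irf9, Irf7, Isg15 and Usp18, and the 7 points of Bst2 lie close together.

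Of the cytosolic sensors, the RNA helicase genes varied and Zbp1 did not. Ddx58, which encodes the viral RNA sensor RIG-I, read 6.93, 6.83 and 7.72 in the wild-type samples and 7.69, 7.53, 6.86 and 7.34 in the knockout samples. Here wild-type 1, wild-type 2 and knockout 3 were low together, and the difference was 0.20 (-0.45 to 0.84). Ifih1, which encodes the long double-stranded RNA sensor MDA5, read 6.91, 7.31 and 7.78 against 7.63, 7.79, 6.94 and 7.31, a difference of 0.08 (-0.54 to 0.71). Dhx58, which encodes LGP2, a helicase that modulates both sensors, ranged from 4.90 on wild-type 1 to 5.94 on wild-type 3, with a difference of 0.16. Zbp1, a sensor of Z-form nucleic acids, lay between 4.86 and 5.09 on all 7 arrays, with a difference of 0.00 (-0.20 to 0.20).

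Genes whose products act on viral RNA showed the pattern in most cases. Ifit1, which binds RNA lacking a host cap, read 6.15, 7.04 and 7.04 in the wild-type samples and 7.01, 7.50, 6.09 and 6.98 in the knockout samples. Wild-type 1 and knockout 3 were at least 0.83 below every other array, and the difference was 0.15 (-0.70 to 1.01). Ifit2, a related RNA-binding protein gene, read 3.70, 4.20 and 4.22 against 4.21, 4.97, 4.01 and 4.22, so that knockout 2 stood above the rest, and differed by 0.31 (-0.28 to 0.90).

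Ifit3, a partner of the other IFIT proteins, did not share the pattern of its neighbours on chromosome 19. It read 5.98, 6.10 and 6.07 against 6.24, 6.01, 6.23 and 6.58, with the knockout 2 value among the wild-type ones, and its difference of 0.22 (-0.11 to 0.54) had the smallest unadjusted p among the members, at 0.161. A near-identical mouse copy of Ifit3 exists, and the array may not tell the copies apart. Its promoter stretch held 2 response element matches, as that of Ifit1 did.

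Oasl2, an oligoadenylate synthetase-like gene, read 6.07, 6.55 and 7.61 against 7.21, 7.34, 6.68 and 7.03, a 2.91-fold span over the 7 arrays. Its wild-type values alone covered that span, and the difference was 0.32 (-0.51 to 1.16). Its relative Oasl1 was at 4.60 on wild-type 1, 5.07 on knockout 3 and 5.53 to 5.67 on the other 5 arrays. Oas2, whose product activates RNase L, ranged from 4.69 to 5.65, with wild-type 3 and knockout 2 at least 0.59 above every other array. Eif2ak2, which encodes the double-stranded RNA kinase PKR, was lowest on wild-type 1 (6.23) and knockout 3 (6.26) and highest on wild-type 3 (7.11), with a difference of 0.01 (-0.56 to 0.58).

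Among the other antiviral effectors the widest spans were those of Samd9l and Mx2. Samd9l, which encodes a restriction factor that acts on translation, read 5.47, 5.22 and 6.85 in the wild-type samples and 6.60, 6.16, 5.11 and 6.09 in the knockout samples, a 3.34-fold span. Wild-type 1, wild-type 2 and knockout 3 were low, and the difference was 0.14 (-0.98 to 1.26). Mx2, a dynamin-like GTPase gene, read 4.25, 5.59 and 5.79 against 5.48, 5.75, 4.07 and 5.40. Here wild-type 1 and knockout 3 lay at least 1.15 below every other array, and the difference was -0.04 (-1.23 to 1.16), the widest interval among the members.

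Rsad2, which encodes the radical SAM enzyme viperin, had label means of 5.33 ± 0.56 (SD, n = 3) and 5.33 ± 0.17 (SD, n = 4), a difference of 0. Its neighbour Cmpk2, a mitochondrial nucleotide kinase gene, was highest on knockout 2 (7.33) and wild-type 3 (7.14) and lay between 6.28 and 6.61 elsewhere. Bst2, which encodes the virus-tethering protein tetherin, stayed between 10.22 and 10.61 on all arrays, and its stretch above holds 2 response element matches. Mx1, which is defective in C57BL/6 mice, was below the dim filter and lay between 1.69 and 2.31.

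The ISG15 and ADP-ribosyl system had the largest median difference of the roles, at 0.34. Isg15, a ubiquitin-like modifier, read 5.26, 6.27 and 6.81 in the wild-type samples and 6.37, 6.60, 5.68 and 7.24 in the knockout samples, the widest span of all members at 3.94-fold. Wild-type 1 and knockout 3 were lowest and knockout 4 highest, and the difference was 0.36 (SE 0.45, -0.71 to 1.43). Usp18, which removes ISG15 from proteins and restrains IFNAR, read 5.51, 5.92 and 6.48 against 6.78, 6.78, 5.76 and 6.53. Of its knockout values 3 lay above every wild-type value and that of knockout 3 lay below 2 of them. Its difference of 0.49 (SE 0.32, -0.25 to 1.24) was the largest of the 31 and corresponds to 141% of the wild-type level.

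Parp14, an ADP-ribosyltransferase gene, read 6.80, 7.42 and 8.14 against 8.08, 8.21, 7.13 and 7.69, a difference of 0.32 (-0.54 to 1.19). Again the values of wild-type 1 and knockout 3 were lowest. Parp9, whose product works with the ubiquitin ligase DTX3L, lay between 6.51 on wild-type 1 and 7.08 on knockout 2, with a difference of 0.15 (-0.18 to 0.47). All 4 tested genes of this system had a positive difference, and none passed the test. The 4 sensors also had positive differences, as did 53.9% of all genes tested. Without wild-type 1 the differences of Isg15 and Parp14 were -0.068 and -0.0025.

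The interferon-inducible GTPases, which act on vacuoles of intracellular pathogens, were all lowest on the array labelled wild-type 1. Igtp, which encodes IRGM3, read 5.91, 6.31 and 6.80 against 6.57, 7.18, 6.43 and 6.72, a difference of 0.39 (-0.20 to 0.98). Irgm1, a regulator of the same family, was lowest on wild-type 1 (6.41) and knockout 3 (6.53) and highest on knockout 2 (7.25) and wild-type 3 (7.20). Gbp3, a guanylate-binding protein gene, stood at 6.26 on wild-type 3 and between 5.19 and 5.68 on the other 6 arrays, with a difference of -0.09 (-0.64 to 0.46).

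The remaining members had small differences. Rtp4, an interferon-inducible negative regulator of the response, was lowest on knockout 3 (8.34) and wild-type 1 (8.42) and highest on knockout 2 (9.17). Xaf1, a gene of a pro-apoptotic zinc finger protein, lay between 8.99 on wild-type 1 and 9.79 on wild-type 3, and Trim30a, a gene of the tripartite motif family, between 4.25 on knockout 3 and 5.59 on wild-type 3. Their differences were 0.19 for Rtp4, 0.06 for Xaf1 and -0.07 for Trim30a. Ifi35, which encodes an interferon-induced leucine zipper protein, differed by -0.10 (-0.50 to 0.31), and its second, dimmer probe set by 0.04, so the sign depended on the probe set.

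No interferon-stimulated gene passed the comparison of the labels. Of the 31 members, 23 had higher values on the arrays labelled knockout, 7 had lower values and Rsad2 was equal, with a median difference of 0.12. Over all genes tested 53.9% were higher and the median was 0.02. With limma, 0 members were called at an adjusted p under 0.05 (0% of all genes tested were called), and 0 had an unadjusted p under 0.05, against 3.34% of all genes. The smallest adjusted p of a member was 0.971, and the labels overlapped for every member, where 2.45% of all genes tested had no overlap.

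The precision was lower for the members than for other genes. The median residual SD within labels was 0.38 for the members against 0.20 over all genes, and the median 95% confidence interval reached 0.59 to either side against 0.35. For 28 of the 31 members the difference was smaller in size than the SD within labels. The interval lay wholly between -1 and 1 for 24 members, so a 2-fold change either way was outside it. It reached 1 or more for 7 (Isg15, Samd9l, Usp18, Parp14, Mx2, Oasl2 and Ifit1), and -1.23 for Mx2.

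Single arrays moved these differences. Without the array labelled wild-type 1, 10 members had a higher knockout mean and the mean over the 32 members differed by -0.07, and without wild-type 3, 30 members did and the mean differed by 0.33. Without knockout 2 the mean differed by 0.04, and without knockout 3 by 0.26. Only Ifit2, Ifit3, Irf1, Usp18, Rtp4, Ddx58, Parp9 and Igtp kept a positive difference whichever array was left out. With limma, no member passed with any array left out. An unadjusted p under 0.05 was reached by Oasl2 and Igtp without wild-type 3, by Ifit3 without knockout 2 and by Usp18 without knockout 3, each with the knockout mean higher. Of all genes, 4.51%, 1.97% and 2.75% did so in that direction in the same fits.

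**Figure D3:**
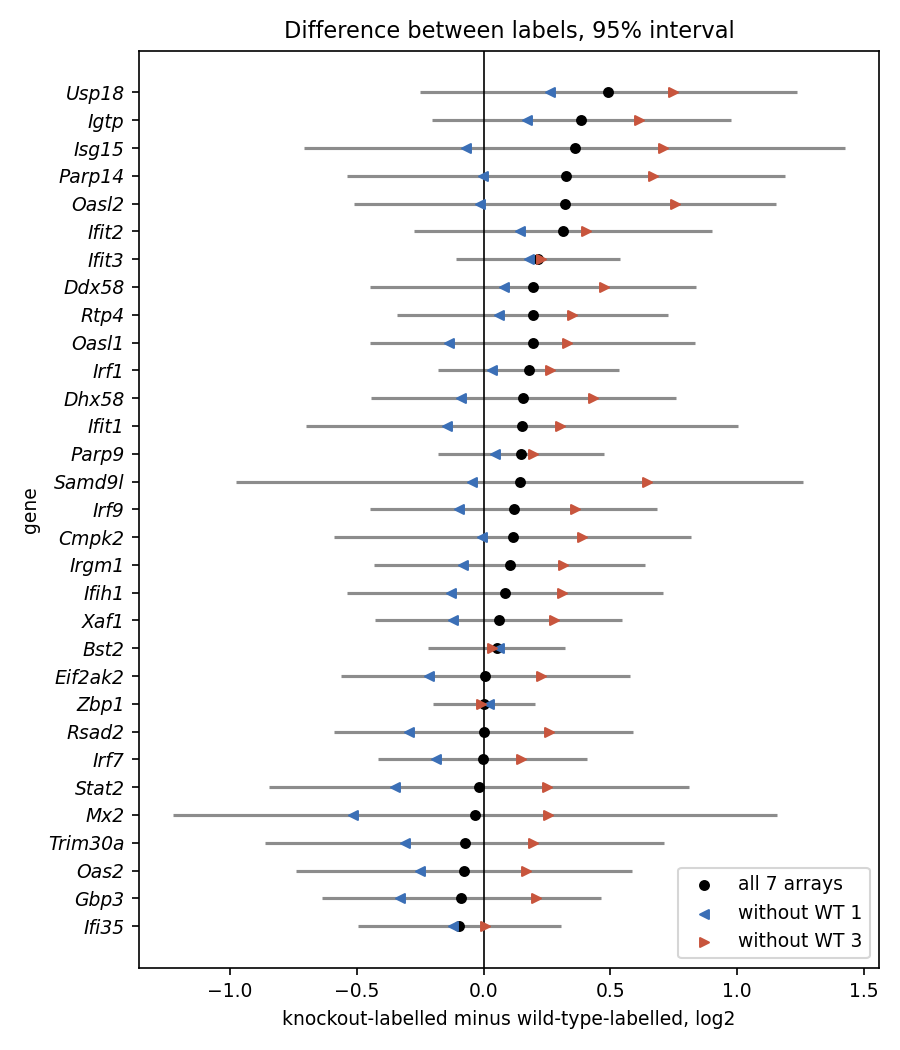
Difference between labels (knockout minus wild-type mean, log2) of the 31 tested members, with 95% confidence intervals from limma as lines and the difference without the array labelled wild-type 1 or wild-type 3 as triangles. Every interval includes 0, and for most genes the triangles lie on opposite sides of the point for all 7 arrays.

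On the arrays labelled wild-type 3 and knockout 3, the Sash1 signal lay near the mean of the other label. These arrays also carried the highest wild-type and the lowest knockout mean of the members, at 6.79 and 6.10. Leaving both out therefore separates the labels on that mean by the choice of arrays itself. Without them the remaining wild-type arrays stood at 5.98 and 6.36 and the remaining knockout arrays at 6.55 to 6.75. All 31 members then had higher knockout means, with a median of 0.47 against 0.01 over all genes. An unadjusted p under 0.05 was reached by 10 members in this direction, against 5.96% of all genes. Among them were Usp18, Samd9l, Oasl2 and Ddx58, with log2 differences of 0.98, 0.94, 0.88 and 0.64. With limma 0 of the 31 members passed, with a smallest adjusted p of 0.256, and 0% of all genes passed. This fit was chosen with earlier results known and leaves 2 wild-type arrays.

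No gene listed upstream of the response passed the comparison of the labels in limma. Of 12 interferon genes listed, 10 had a usable probe set, of which 6 passed the filter on dim genes and 4 did not. Ifnb1, the gene of interferon beta, lay between 1.61 and 2.26 and below the filter, and Ifng, that of interferon gamma, was at 3.25 on 5 of the 7 arrays. Of the tested ligand genes, Ifna1 differed by 0.29 (-0.05 to 0.64), Ifna4 by -0.25 (-0.54 to 0.03) and Ifne by 0.11, and 0 passed. Ifnl2 and Ifnl3, genes of interferon lambda named after their values were seen, lay between 6.22 and 6.78 and between 5.68 and 6.85. Both were lowest on knockout 2, and they differed by 0.02 (-0.34 to 0.38) and 0.04 (-0.61 to 0.69).

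Receptor and kinase genes varied less than the members, with a median range of 0.54 over the 9 tested of 10 listed. Ifnar1 and Ifnar2, the subunits of the type I receptor, lay between 8.61 and 9.01 and between 9.02 and 9.23, and differed by -0.06 (-0.36 to 0.24) and 0.01 (-0.18 to 0.21). Ifngr1 and Ifngr2, of the interferon gamma receptor, differed by -0.13 and -0.08, and Il10rb, a subunit shared with the interferon lambda receptor, by 0.23. Jak1 lay between 8.92 and 9.18. The other receptor kinase gene, Tyk2, read 5.38, 5.49 and 6.37 in the wild-type samples and 6.33, 6.17, 5.93 and 6.07 in the knockout samples, a difference of 0.38 (-0.20 to 0.95), and was lowest on wild-type 1 and highest on wild-type 3. Of these 9 genes 4 had positive and 5 negative differences, and 0 passed.

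Of the 13 tested genes that sense nucleic acids or signal towards interferon induction, 7 were higher and 6 lower, and 0 passed. Mavs, the mitochondrial adaptor of RIG-I and MDA5, read 5.97, 6.01 and 6.80 against 6.85, 7.06, 6.25 and 6.88, a difference of 0.50 (-0.13 to 1.13). It was lowest on wild-type 1 and wild-type 2. Cgas, the cytosolic DNA sensor, differed by 0.32 (-0.06 to 0.71), Tlr4, the lipopolysaccharide receptor gene, by -0.41 (-0.88 to 0.05), and Irf3, which starts interferon transcription, by 0.17 (-0.24 to 0.58). Of 11 tested negative regulators 6 were higher and 5 lower, and 0 passed. The 3 of smallest unadjusted p were Nlrx1, Samhd1 and Irf2, with log2 differences of 0.24, 0.26 and 0.27. The difference farthest from 0 in this list was the -0.77 (-3.27 to 1.72) of Socs3, a feedback inhibitor of JAK kinases named after its values were seen. It read 7.56, 7.11 and 4.66 in the wild-type samples and 5.36, 4.90, 8.17 and 4.26 in the knockout samples, so that knockout 3, wild-type 1 and wild-type 2 were high.

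Further interferon-stimulated genes outside the set followed it in part. Of 52 listed, 42 were tested, with a median difference of 0.06 and 0 called. The knockout mean was higher for 30 of the 42 (71.4%, against 53.9% of all genes tested) and lower for 12. Of the 42, 13 were lowest on the array labelled wild-type 1 and 12 on knockout 3, against 13% and 10.5% of all genes. The highest value fell on wild-type 3 for 10, against 10.3% of all genes, and on knockout 2 for 11. The count on knockout 2 was 26.2% of the 42, close to the 20.9% of all genes, so it shows little. The mean of the 42 was 6.21, 6.35 and 6.69 in the wild-type samples and 6.61, 6.70, 6.22 and 6.56 in the knockout samples. The 3 of smallest unadjusted p were Slfn8, Nmi and Isg20, whose log2 differences were 0.26, 0.16 and 0.14, with intervals that included 0. The median range of the 42 was 0.75, smaller than that of the members and larger than that of all genes.

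Several other gene lists were high on the arrays where the members were lowest. Immediate early and dissociation stress genes, such as Fos and Atf3, which are induced while tissue is taken apart, averaged 8.81, 8.60 and 7.39 in wild-type 1, 2 and 3 and 9.06 on knockout 3, against 8.40, 7.33 and 6.85 on knockout 1, 2 and 4. They were highest on knockout 3 and wild-type 1, followed by wild-type 2 and knockout 1. On the first pair the interferon-stimulated genes were lowest. On knockout 4, where they were lowest, the interferon-stimulated genes were not at their highest. Of the 18 genes, 14 were highest on knockout 3, against 12.7% of all genes tested. Their part in the interferon pattern was not tested.

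Markers of other cells were measured as well. In bulk samples such as these, fewer cells of a type and less RNA per cell cannot be told apart. The 18 leukocyte and macrophage markers averaged 5.90, 5.68 and 5.35 in the wild-type samples and 5.59, 5.31, 5.68 and 4.60 in the knockout samples, and 16 markers had lower values on the knockout arrays. Ptprc, the CD45 gene, lay between 3.51 and 4.85. By their means over the 7 arrays, the 18 markers ran from 3.08 (C1qc) to 9.35 (Lyz2). The 16 lung epithelium markers averaged 8.08, 7.72 and 7.06 against 7.82, 7.28, 7.89 and 6.43. Epcam, the CD326 gene, lay between 4.06 and 5.31 and was the dimmest of them, with a mean of 4.95. The brightest was the surfactant gene Sftpc, with a mean of 11.69, so epithelial transcripts were present in the sorted samples. Of these 16 markers, 13 had lower values on the knockout arrays. Over all 16637 genes tested, 7582 had lower and 8969 higher values there. The array labelled knockout 4 alone was lowest for 10 of the leukocyte and macrophage markers and 10 of the epithelial ones, against 15.3% of all genes. Both lists were highest on wild-type 1, followed by knockout 3, which for the leukocyte list was level with wild-type 2, and lowest on knockout 4. The 7 tested markers of lymphocytes and plasmacytoid cells, the latter a main source of type I interferon, averaged 3.87 to 4.56 with wild-type 1 lowest. The 12 fibroblast and mural markers averaged 6.96 to 7.67, and 11 were higher on the knockout arrays. The 4 platelet markers averaged 5.97, 5.59 and 4.90 against 5.25, 4.92, 5.86 and 4.54, with all lower on the knockout arrays, and were likewise highest on wild-type 1 and knockout 3. The 4 mesothelial markers averaged 5.06 to 5.99. The part of these cells in the interferon pattern was not tested. Of 8 erythroid markers 1 was tested, and it lay between 4.48 and 5.18. The 10 endothelial markers averaged 10.15, 10.11 and 10.19 in the wild-type samples and 10.13, 10.29, 10.06 and 10.09 in the knockout samples. They were highest on knockout 2 and wild-type 3, as the members were, and lowest on knockout 3. The part of this variation in the interferon pattern was not tested either.

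**Figure D4:**
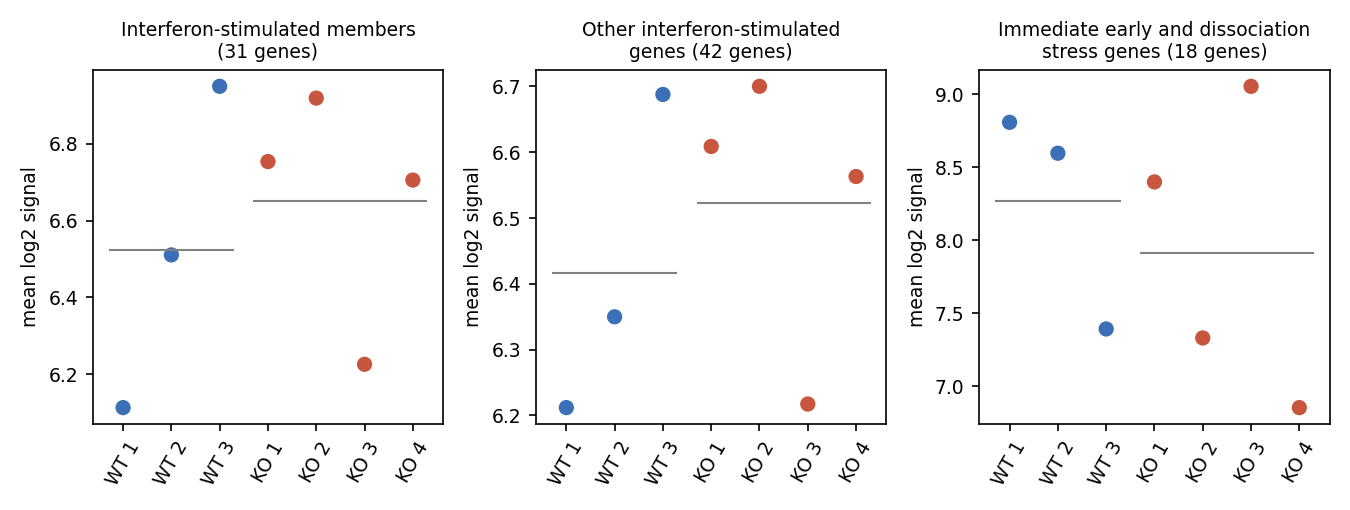
Mean log2 signal on each array of the 31 tested members, of 42 further interferon-stimulated genes and of 18 immediate early and dissociation stress genes, with blue points for wild-type (WT) and red points for knockout (KO) labels and grey lines at the label means. The vertical axes differ. WT 1 and KO 3 are lowest in the first and second panels and highest in the third.

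The 2 male samples were wild-type 1, with the lowest mean of the members (5.98), and knockout 2, with one of the highest (6.75). The part of sex in the interferon pattern was not tested. With sex as a covariate 22 members had a positive difference and 0 passed in limma.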

How the data were processed

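The authors deposited 1 value per probe set and array, produced by the RMA algorithm in Affymetrix Expression Console 1.1, per the submitters' processing notes. That these deposited values are log2 was read from the values. No genome build of the array is named in those notes. Of 41345 probe sets, 23521 had 1 gene symbol, 1814 several and 16010 none listed. Symbols were updated through RefSeq gene identifiers (99.2% found). The dimmest 25% of genes were left out. The test between labels used limma 3.58.1 (eBayes after lmFit) in R 4.3.3, genotype as the only term, two-sided, with Benjamini-Hochberg adjustment over all 16637 genes, after a check on simulated data. The members, gene lists, tests and alternatives were chosen with earlier results of these data known. Genes named beside the members were the 3 of smallest unadjusted p in each interferon list, the receptor, kinase and ligand genes and the sorting markers; members in full were the 6 of smallest p, the 6 of widest range and the factor, sensor and feedback genes. Fos and Atf3 are named as examples without values. C1qc, Lyz2 and Sftpc are named as the dimmest or brightest markers of their lists. No reads stand behind array values, so the number of arrays limits the precision.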

Additional observations from a re-analysis of the deposited data

Results flagged for a closer look

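Dixon's test was run on 60 sets of 4 knockout values, and in 7 of them a value stood apart from the others. Chance flags about 1 in 20 sets of independent values. These genes varied together and some values were equal, so the 2 rates are not directly comparable. Irf7 was 6.54 on the array labelled knockout 3, below the others, and Rsad2 was 5.59 on knockout 2, above them. Outside the members, Nlrx1 on knockout 3 (5.63), Isg20 on knockout 2 (5.99) and Ifnb1 on knockout 1 (2.26, below the dim filter) were high, and Ptprc (3.51) and Epcam (4.06) were low on knockout 4.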

How the results depend on the processing

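With limma, 0 members were called under every alternative run (other filters on dim genes, quantile normalization, median centring, other variance moderation, array weights, averaged probe sets, sex, a threshold of 0.1 and arrays left out). Without wild-type 3 and knockout 3, 10 members had an unadjusted p under 0.05 and the mean over members differed by 0.47; with 1 array left out these were 0 to 2 members and -0.07 to 0.33, and 10 to 30 members had a higher knockout mean. Over 18 alternatives, 8 of 30 members with a difference other than 0 kept its sign. Signs turned without wild-type 3 and knockout 3 for Irf7 (0.23), Stat2 (0.49), Oas2 (0.29), Mx2 (0.62), Ifi35 (0.13), Gbp3 (0.17), Trim30a (0.44) and Ifnar1 (0.013). They turned with median centring, which moved the median of all genes to 0.07, for Irf7 (0.053), Stat2 (0.039), Mx2 (0.022), Ifng (0.037) and Cdh5 (0.0058), and with array weights for Irf7 (0.0056), Gbp3 (0.023), Zbp1 (-0.013) and Ifng (0.00026). Eif2ak2 turned with sex (-0.0018), and with quantile normalization Ifng (0.024) and Pecam1 (-0.021) did. With 1 array left out, the signs of Ifit1 (-0.14 to 0.42), Isg15 (-0.068 to 0.71), Irf7 (-0.19 to 0.15), Irf9 (-0.095 to 0.36), Stat2 (-0.35 to 0.25), Oasl1 (-0.14 to 0.39), Oasl2 (-0.015 to 0.76), Oas2 (-0.28 to 0.17), Mx2 (-0.52 to 0.33), Bst2 (-0.02 to 0.11), Ifi35 (-0.19 to 0.033), Ifih1 (-0.13 to 0.31), Dhx58 (-0.087 to 0.43), Gbp3 (-0.33 to 0.20), Xaf1 (-0.12 to 0.28), Parp14 (-0.0025 to 0.67), Cmpk2 (-0.093 to 0.39), Trim30a (-0.31 to 0.20), Zbp1 (-0.043 to 0.033), Eif2ak2 (-0.21 to 0.23), Samd9l (-0.17 to 0.65), Irgm1 (-0.08 to 0.32), Ifnar1 (-0.14 to 0.025), Ifnar2 (-0.035 to 0.07), Ifngr1 (-0.20 to 0.017), Ifng (-0.063 to 0.037), Pecam1 (-0.027 to 0.033) and Epcam (-0.34 to 0.12) turned. The causes were not tested.

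Replicate numbers 1 to 3 occur under both labels, but deviations from the label means correlated at -0.18, -0.20 and -0.55 between samples of the same number, so the numbers were not taken as pairs. With the number as a replicate block, 0 members passed in limma, 0 had an unadjusted p under 0.05 and 22 had a positive difference. Knockout 4 is the only array with its number, so in this fit it adds nothing to the difference between labels. Bst2 (-0.02), Ifngr1 (0.017) and Epcam (0.12) then turned sign, with the same values as when knockout 4 was left out.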
